A study of Drosophila melanogaster with 2 samples.

Results

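The ionotropic receptor (Ir) genes of Drosophila melanogaster were examined in S2 cells, a line started from fly embryos that resembles blood cells (hemocytes), for accessible chromatin at their ends and inside them. The 60 genes were all RefSeq protein-coding genes on the 7 chromosomes used (2L, 2R, 3L, 3R, 4, X and Y) whose symbol is Ir followed by a digit, out of 13946 protein-coding genes. The series held 1 group of 2 ATAC-seq libraries of this line, each tagmented by the Tn5 transposase from 2000000 cells and amplified for 12 cycles. The labels do not give separate cultures for the libraries, and the series has 1 peak list, which names no library. No value below therefore has a replicate error, and no comparison between samples was made. All 6 of 6 hemocyte marker genes looked up (srp, Hml, eater, NimC1, Pxn and crq) had a peak at an end, as did 60.4% of all protein-coding genes, so the count is a weak check of the cell type.

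Ionotropic receptors are ligand-gated ion channels that descend from the ionotropic glutamate receptors of synapses. In the fly they sense acids, amines, temperature, humidity and tastants in neurons of the antenna, the mouthparts and the legs. A tuning receptor, which sets what is sensed, works together with broadly used co-receptors such as Ir8a, Ir25a and Ir76b. The antennal receptors are conserved across insects, whereas the divergent receptors are found mainly in taste organs and larvae and often lie side by side in the genome.

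The deposited list held 35535 summits in 28292 intervals on build dm6. The fold enrichment of each peak is the authors' value. The pileup, the number of overlapping fragments at a summit, was recovered as a whole number for all 35535 of 35535 summits, with a median of 56 and quartiles of 33 and 109. Library depths are unknown. The list has a floor, since against the caller's genome-wide background of 9.91 fragments the weakest summit had a pileup of 20 and a fold of 1.92. No summit in the list had a pileup under 20, so weaker accessibility was not detectable. Where the local background is higher a summit needs a higher pileup to be listed, at a fold that can be lower, and the lowest fold in the list was 1.23. Each pileup is followed by its exact Poisson interval of 95%, which, like the intervals on shares, covers counting error only.

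Most Ir genes had no accessible site at their ends or inside. A peak interval lay within 250 bp of an annotated gene end for 7 of 60 members, or 11.7% (95% exact interval 4.82 to 22.6%), against 60.4% of all protein-coding genes. A summit lay inside 8 members (13.3%, 5.94 to 24.6%), against 43.9% of all genes. Neither was found for 47 members (78.3%, 65.8 to 87.9%), against 33.6% of all genes. No member had a peak at both ends. The median distance from a member's body to the nearest summit was 2910.5 bp (quartiles 690 and 5403 bp), whereas the median over all genes was 20 bp. The nearest summit was more than 1 kb away for 43 members (71.7%, against 26.6% of all genes) and more than 10 kb away for 9 members (15.0%, against 7.44%). No intervals were computed for these distance shares. Ir7a, Ir7b and Ir7c, all among the 9, lie in the same stretch without a summit, so the 9 are not separate cases.

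**Figure D1:**
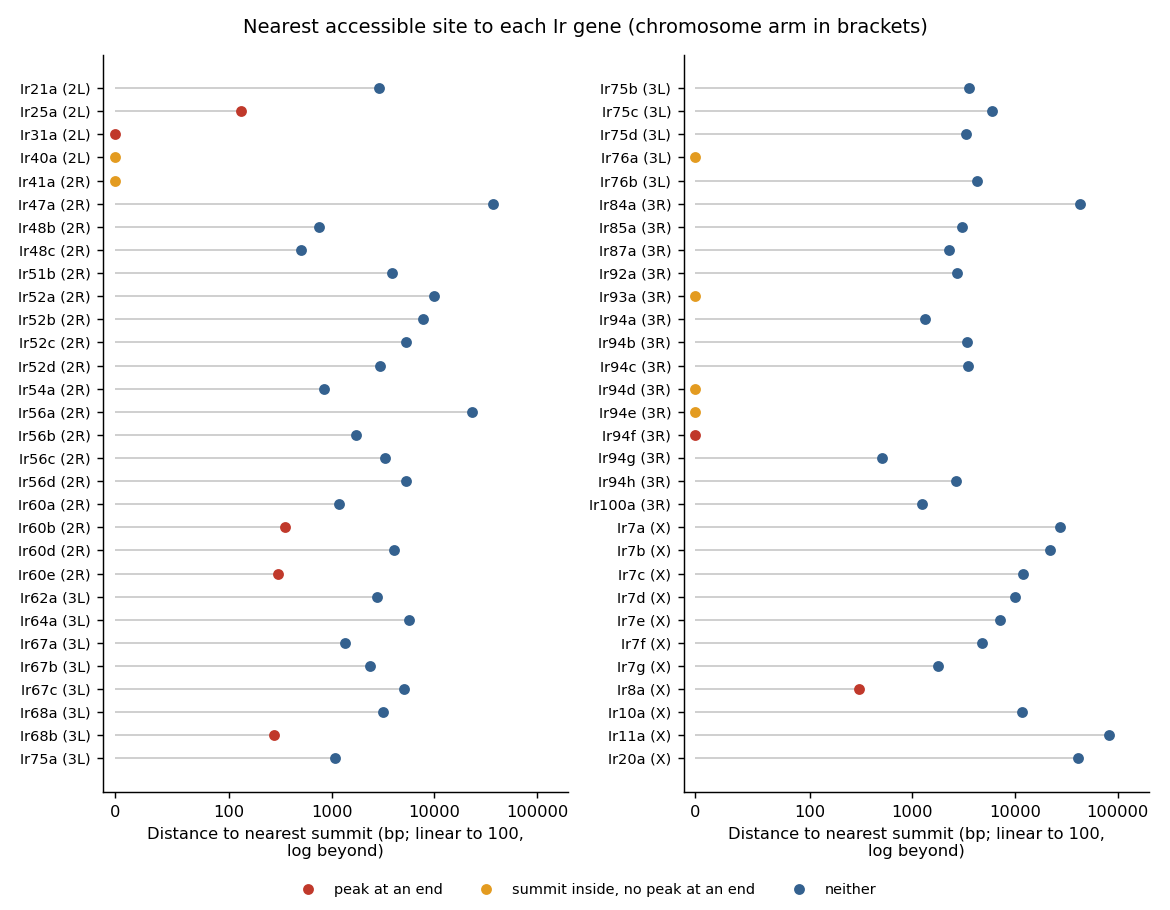
Distance in bp from each of the 60 Ir gene bodies to the nearest summit, in genome order by chromosome arm, on an axis that is linear to 100 bp and logarithmic beyond. Points are coloured by whether the gene had a peak at an end (7), only a summit inside (6) or neither (47). The longest distances, above 20 kb, are those of Ir11a, Ir84a, Ir20a, Ir47a, Ir7a, Ir56a and Ir7b.

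Where an Ir gene did have a peak at an end, the summit mostly sat closer to the end of a neighbouring gene. This held for 6 of the 7 members, against 25.3% of all 8421 genes with a peak at an end, taking the highest such peak of each gene. The summits lay 124 to 352 bp from the Ir gene and 13 to 61 bp from the other gene. Over all genes with a peak at an end the median distance from the highest summit to the gene's own end was 66 bp, and over the 7 members it was 276 bp. Strand was not given in the gene table used, so starts and finishes of genes could not be told apart.

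The pair of co-receptor genes among the 7 showed this arrangement. Ir25a (2L 4830846 to 4835300) encodes the most widely used co-receptor. Its peak, an interval of 148 bp with the summit at 4830716, lay 130 bp outside its left end and 23 bp from the end of Fnta, which encodes a farnesyltransferase subunit. The pileup there was 93 (75.1 to 114) and the fold 8.61. Ir8a (X 9232726 to 9236585), the co-receptor for acid sensing, had a summit at 9232426, which was 300 bp from its left end and 48 bp from CG12121. The pileup was 85 (67.9 to 105) and the fold 7.88.

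Ir31a, an antennal tuning receptor gene (2L 10405565 to 10408197), had its end peak 124 bp past its right end. The summit, at 10408321, was 31 bp from the end of RpS27A, a ubiquitin and ribosomal protein fusion gene, and equally far from the end of Ip259. Its pileup was 83 (66.1 to 103) and its fold 7.70. A second and much weaker summit lay inside Ir31a at 10406777, with a pileup of 28 (18.6 to 40.5).

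Among the divergent receptors, Ir60b, a taste receptor gene for sugar (2R 24515685 to 24517458), and Ir60e (2R 24529554 to 24531272) had the highest values. The peak near Ir60b had a pileup of 131 (110 to 155) and a fold of 11.0, with the summit 352 bp from Ir60b and 13 bp from Letm1, which encodes a mitochondrial inner membrane protein. The peak near Ir60e had a pileup of 140 (118 to 165) and a fold of 9.96, with the summit 299 bp from Ir60e and 23 bp from CG13585. Ir68b (3L 12125487 to 12127394) had a peak of pileup 79 (62.5 to 98.5) and fold 7.32, 276 bp from its left end and 61 bp from yps, a Y-box RNA-binding protein gene. In all 3 of these genes, and in Ir8a, the summit itself was outside the 250 bp window and only the interval reached into it.

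The exception was Ir94f (3R 23481865 to 23483541), a divergent receptor gene. Its end peak lay inside the gene, 187 bp from the right end and 509 bp from the next gene, Ir94g. With a pileup of 31 (21.1 to 44.0) and a fold of 2.30 it was the weakest of the 7, and 21.6% of all summits had a lower pileup. The other 6 were above the list's median of 56, which covers summits away from gene ends too. The highest end peak had a median pileup of 98 over all genes with one, against 85 over the 7 members.

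**Figure D2:**
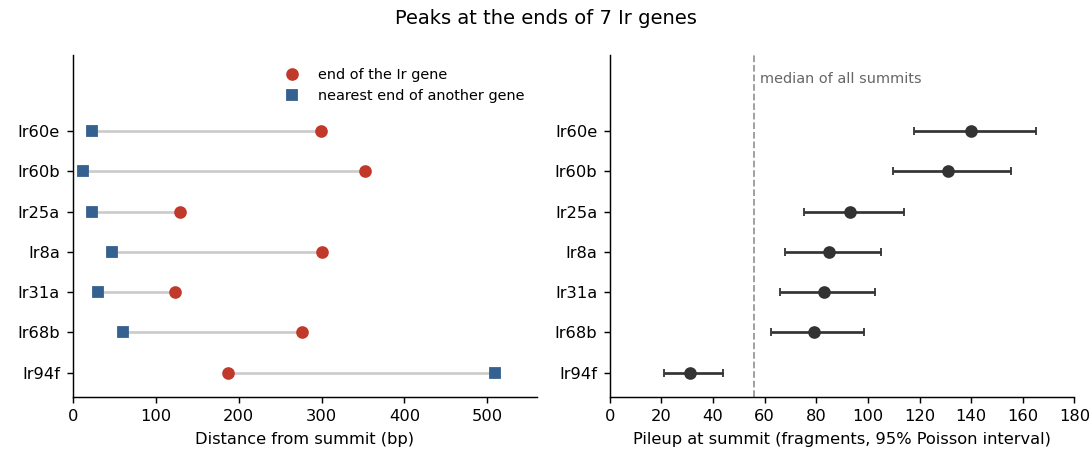
Peaks at the ends of 7 Ir genes. The left panel gives the distance in bp from the summit to the Ir gene's end (circles) and to the nearest end of another gene (squares), and the right panel the pileup in fragments with its 95% Poisson interval and the median of all summits (56, dashed). In 6 genes the square lies nearer to 0 than the circle, and Ir94f has both the reverse order and the lowest pileup, 31.

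The window set which genes counted. The last member inside it was Ir60b, whose interval edge was 250 bp from the gene end, after Ir60e at 235 bp, Ir68b at 216 bp and Ir8a at 210 bp. The nearest members outside were Ir40a, with an interval edge at 272 bp and a pileup of 20 (12.2 to 30.9), and Ir94g at 381 bp, next to the weak Ir94f peak. Ir48c followed at 423 bp, with a strong peak of pileup 102 (83.2 to 124) inside the gene ths, in which Ir48c lies.

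With other rules the share stayed well below that of all genes. With a −log10 q of at least 10 or with the fold at or above the list's median of 3.61, 6 members had an end peak (10.0%), against 53.1% and 51.3% of all genes, and Ir94f was the member lost. With a window of 100 bp 3 members remained (5%, against 53.8%), and with the summit itself required in the window also 3 (against 57.8%). Both times these were Ir25a, Ir31a and Ir94f. A window of 1000 bp gave 15 members (25.0%, 14.7 to 37.9%), against 71.9%. At isolated ends, with no other gene's end within 1 kb, none of the 34 members with such an end had a peak there, a count of 0 that allows a share of up to 8.82% by the limit of 3 counts and of up to 10.3% by the exact interval, against 30.3% of all genes with such ends.

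**Figure D3:**
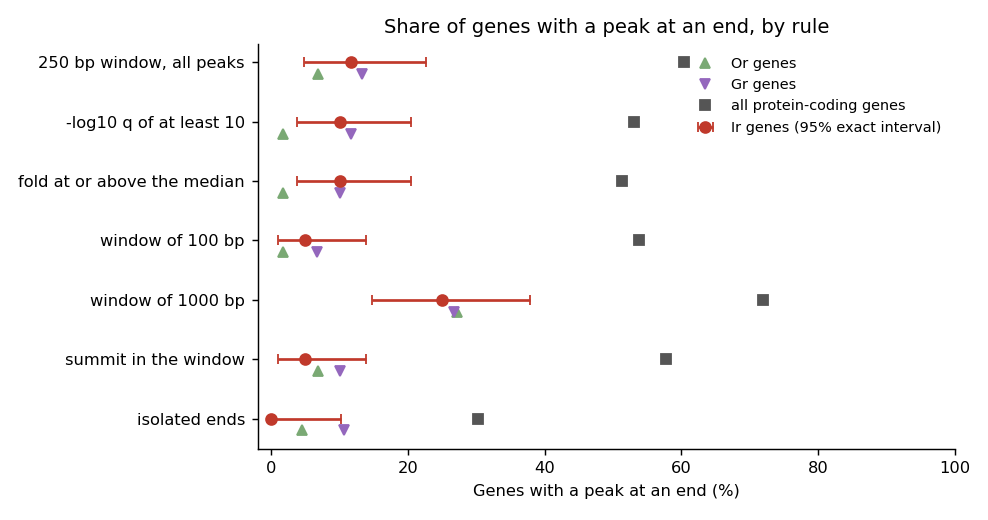
Percentage of genes with a peak at an end under 7 rules, for Ir genes (circles with 95% exact intervals), Or genes, Gr genes and all protein-coding genes. The Ir share runs from 0% at isolated ends to 25.0% with a window of 1000 bp, and the share of all genes lies above the Ir interval in each of the 7 rules.

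Odorant receptor (Or) and gustatory receptor (Gr) genes, the other large chemosensory families, gave similar shares with an end peak and similar median distances, set here side by side without a test. An end peak was found for 4 of 59 Or genes (6.78%, 1.88 to 16.5%) and for 8 of 60 Gr genes (13.3%, 5.94 to 24.6%). The median distance to the nearest summit was 2735 bp for Or and 2967.5 bp for Gr genes, against 2910.5 bp for Ir genes. The nearest summit was more than 10 kb away for 15 Or (25.4%) and 13 Gr genes (21.7%), against 9 Ir genes (15.0%). A summit lay inside 5 Or (8.47%) and 3 Gr genes (5%), against 8 Ir genes (13.3%). The density inside was 8.11 summits per 100 kb of Or and 2.69 of Gr genes, against 13.1 of Ir genes. Without the 2 longest members, Ir40a and Ir41a, left out after their values were seen, the Ir density was 5.07, below that of Or genes. Of the genes with an end peak, the highest summit was nearer to another gene's end in 1 of 4 Or and 4 of 8 Gr genes, against 6 of 7 Ir genes. The counts are too small to rank the families.

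**Figure D4:**
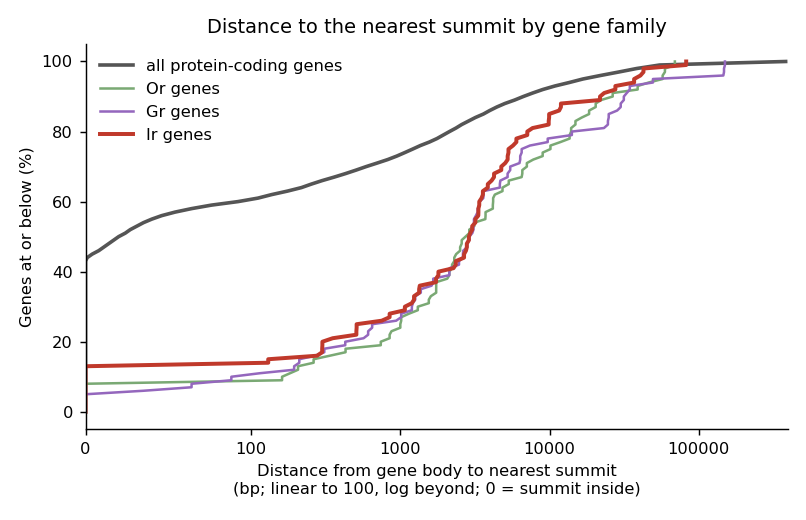
Cumulative percentage of genes by distance in bp from the gene body to the nearest summit, on an axis linear to 100 bp and logarithmic beyond. The Ir, Or and Gr curves lie close together up to their medians of 2910.5, 2735 and 2967.5 bp and part above them, where the Ir curve reaches 75% at 5307 bp, the Gr curve at 6506 bp and the Or curve at 10145 bp, and the curve of all protein-coding genes lies far to the left with a median of 20 bp.

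The 4 co-receptor genes covered each outcome. Ir25a and Ir8a had the neighbour-side peaks described above. Ir93a, the co-receptor used in temperature and humidity sensing (3R 20851709 to 20859945), had no end peak but 1 weak summit inside, at 20852789, with a pileup of 29 (19.4 to 41.6) and a fold of 2.75. It lay 516 bp from the microRNA gene mir-1011, which is nested in Ir93a. Ir76b, a co-receptor for amines and many tastants (3L 20108484 to 20111534), had neither. The summit nearest to it was 4247 bp away, with a pileup of 113.

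The receptors of temperature and humidity differed in the same way. Ir21a, needed for cool sensing, and Ir68a, for moist air, had no site at an end or inside, with the nearest summits at 2880 and 3183 bp and pileups of 35 and 22. Ir40a, for dry air, is unusually long at 24.9 kb (2L 22189526 to 22214376) and held 8 summits in 6 intervals. Their pileups ran from 22 to 32, all below the list's median, and all lay at least 7096 bp from either end. The density was 32.2 summits per 100 kb, against 28.7 for all summits of arm 2L, those at gene ends included. The summits were unevenly spread, with a group of them between 22200653 and 22201346.

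Ir41a, a polyamine receptor gene and at 104 kb the longest of the family (2R 4917519 to 5021955), held 20 of the 35 summits found inside Ir genes. Its pileups ran from 20 to 42 with a median of 25, and all were below the list's median. The summits lay in the left part of the gene, between 6.76 and 56.4 kb from its left end, and the remaining 48.1 kb held none. The density was 19.2 per 100 kb, against 27.6 for all summits of arm 2R, those at gene ends included. The 60 members together held 13.1 inside summits per 100 kb of gene, against 26.4 over all protein-coding genes. Without Ir40a and Ir41a, left out after their values were seen, 7 inside summits remained in 138 kb, or 5.07 per 100 kb.

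The other antennal tuning receptors mostly lacked sites. Ir76a, a phenylethylamine receptor gene (3L 19799278 to 19803427), had 1 summit inside at 19801279, with a pileup of 43 (31.1 to 57.9) and a fold of 3.91. That summit was 12 bp from the end of the overlapping gene CG14102. Ir64a, an acid sensor, and the acid receptor genes Ir75a, Ir75b and Ir75c had neither, with nearest summits 5689, 1072, 3575 and 5995 bp away. Ir75d and the ammonia receptor gene Ir92a had neither as well, at 3330 and 2754 bp. Ir84a, a receptor gene for food-derived acids that promote courtship (3R 7406869 to 7409384), was 42652 bp from any summit, inside a summit-free stretch of 105 kb.

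Shares were higher among antennal than among divergent genes, with intervals that overlap. Of 17 antennal members 3 had an end peak (17.6%, 3.80 to 43.4%) and 5 a summit inside (29.4%, 10.3 to 56.0%). Of 43 divergent members 4 had an end peak (9.30%, 2.59 to 22.1%) and 3 a summit inside (6.98%, 1.46 to 19.1%). The antennal genes are longer, with a median of 3333 bp against 1815 bp. The part of length in the difference was not tested.

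The summits inside Ir genes were weak as a group. The 34 distinct summits inside a member and not at its end had a median pileup of 27 (range 20 to 43). Their median fold was 2.53, and all 34 were below the list's median pileup. Ir41a held 20 of the 34 and Ir40a 8, so these medians mostly describe that pair of genes. That median covers summits at gene ends too, and inside summits of other genes were not summarized. Whether weak inside summits are particular to Ir genes was therefore not tested. The 7 summits at member ends had a median pileup of 85 (range 31 to 140), and 6 of them were nearer to another gene's end. With a −log10 q of at least 10, Ir41a and Ir76a were the 2 members that still had a summit inside.

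In all, 29 members lay in 9 runs, in which neighbours were at most 20 kb apart. Their strand was not known, and other genes can lie between them. Brca2, for example, lies between Ir60d and Ir60e and overlaps Ir60e. In 6 of these runs no member had a site at an end or inside. These were the runs Ir52a to Ir52d, Ir56b to Ir56d, Ir67b and Ir67c, Ir75a to Ir75c, Ir94a to Ir94c and Ir7b to Ir7g. Sites were also lacking in 47 of all 60 members (78.3%). Members in runs were not compared with the others, so the count shows nothing particular to runs. Ir52c and Ir52d, which are taste receptor genes used in male courtship, had their nearest summit at 5307 and 2941 bp, to the right of the run. The sodium taste receptor gene Ir56b and the fatty acid taste receptor gene Ir56d were 1735 and 5241 bp from their nearest summit, to the left of the run.

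The runs on 3R from Ir94d to Ir94h held weak sites. Ir94d and Ir94e had 1 summit inside each, with pileups of 33 (22.7 to 46.3) and 24 (15.4 to 35.7), at folds of 2.50 and 1.88. Ir94f had 2, with pileups of 34 and 31. The caller's background at these 4 summits was 12.3 to 12.9 fragments, above the genome-wide 9.91. Ir94g and Ir94h had neither and lay 509 and 2673 bp from a summit. In the run from Ir60b to Ir60e the sites lay outside the receptor genes, and Ir60d, in the middle, was 4090 bp from its nearest summit.

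**Figure D5:**
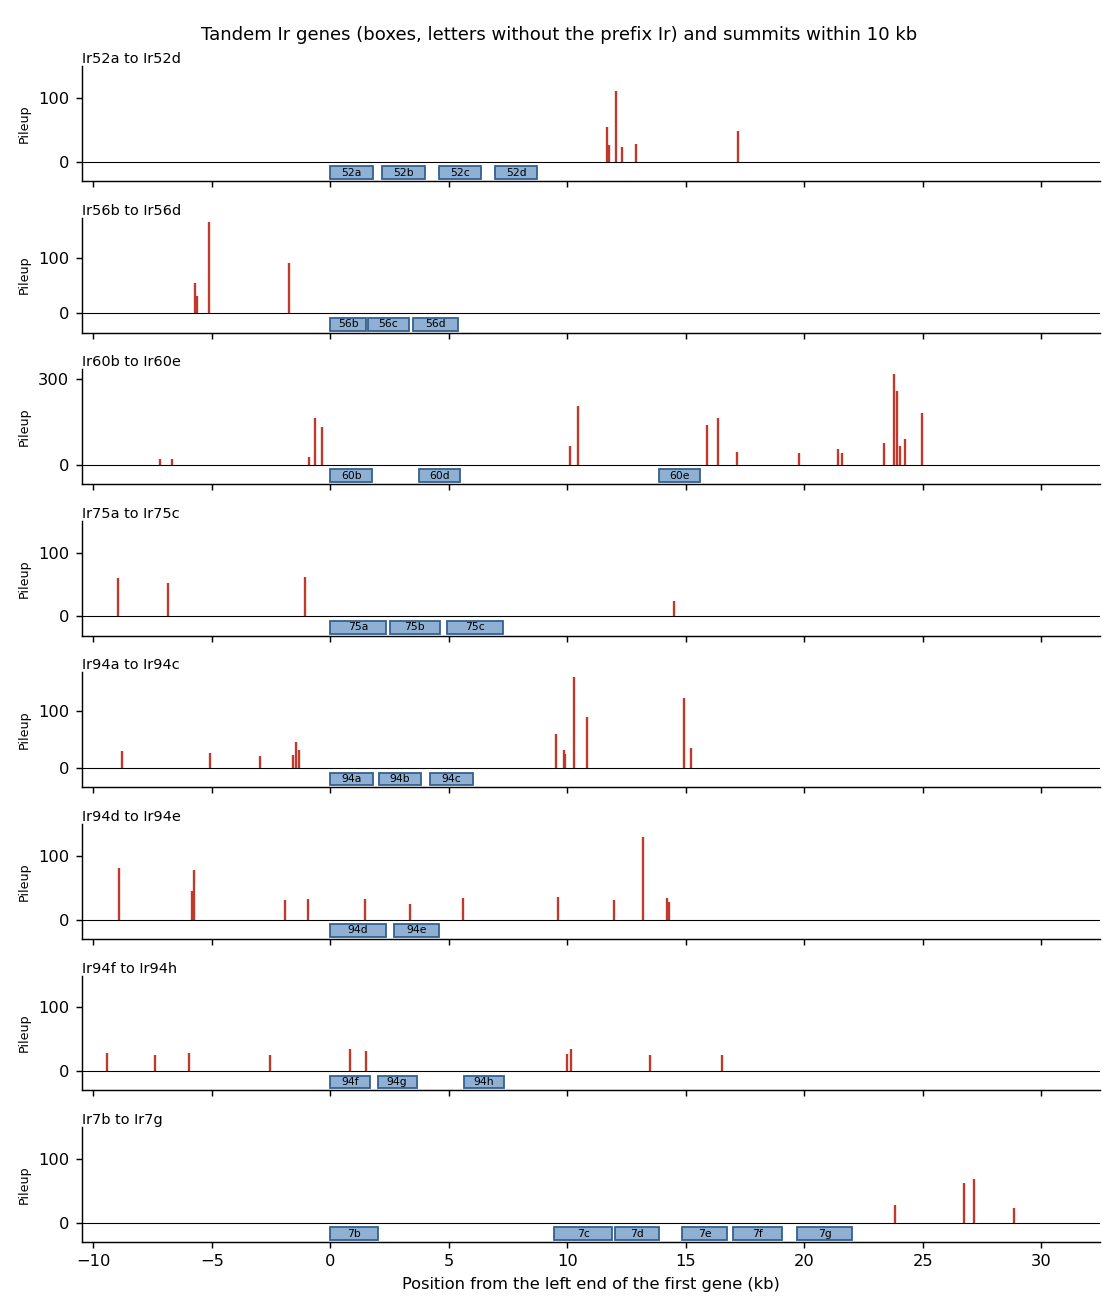
Ir genes (boxes) in 8 of the 9 runs, drawn to scale in kb from the left end of the first gene. Every summit within 10 kb of the run is a vertical line whose height is its pileup in fragments (vertical scales differ between panels). Tandem in the title means close together, with strand not known. The Ir52, Ir56, Ir75, Ir94a to Ir94c and Ir7 runs hold no summit, and the run from Ir60b to Ir60e is flanked and interrupted by summits outside its genes.

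The 11 members on X had the longest median distance to a summit of the 5 arms with members. It was 11602 bp, against 65 bp for the 4 members on 2L, 3138.5 bp on 2R, 3183 bp on 3L and 1803.5 bp on 3R, while the median over all genes of X was 24 bp, close to the 18 to 26 bp of the large autosomal arms. All 7 Ir7 genes lay in 1 summit-free stretch of 151 kb (X 7737337 to 7888775), which held 13 protein-coding genes. Ir7c, needed to taste high salt, was 11928 bp from a summit, and Ir7g, at the right edge, was 1799 bp from a summit of pileup 28. As these genes share a stretch, they do not count as separate cases.

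Ir11a (X 12375596 to 12377755) was the member farthest from a summit, at 82491 bp, in a summit-free stretch of 205 kb. Next were Ir84a at 42652 bp and Ir20a (X 21477254 to 21478945), a taste receptor gene, at 40695 bp, in stretches of 105 and 96.4 kb. The nearest members without a site at an end or inside were Ir48c at 507 bp, Ir94g at 509 bp and Ir48b at 750 bp. Of the 60 members, 42 (70%) lay in a summit-free stretch longer than 10 kb, against 26.9% of all genes. A gene with a summit inside could not count. Among genes without one the counts were 42 of 52 members and 3754 of 7829 genes. The 42 members shared 25 stretches, so they are not separate cases. The list had 116 summit-free stretches over 100 kb, and 3 of them held 9 members. Of these 9 members, 7 were the Ir7 genes, which share a stretch, so the 9 stand for 3 places in the genome. The share of all genes in stretches over 100 kb was not computed, so this count shows nothing particular to Ir genes.

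Ionotropic glutamate receptor genes, the relatives from which the family descends, also had few end peaks. Of 14 genes 3 had one (21.4%, 4.66 to 50.8%), against 60.4% of all genes. A summit lay inside 6 (42.9%, 17.7 to 71.1%), close to the 43.9% of all genes, against 13.3% of Ir genes. These receptor genes are longer, with a median of 6176.5 bp against 1908 bp for Ir genes and 2161 bp for all genes. Per 100 kb of gene they held 8.23 summits, against 13.1 in Ir genes and 26.4 in all genes. Without Ir40a and Ir41a, left out after their values were seen, the Ir density was 5.07, below that of the glutamate receptor genes. The part of length in these shares was not tested. Ekar, a kainate receptor gene on chromosome 4, had the end peak of highest fold, 9.26, with a pileup of 100 (81.4 to 122) and a summit 83 bp past its own right end. At Nmdar2, an NMDA receptor subunit gene, the strongest end summit had a fold of 6.18 and a pileup of 111, in an interval also at the ends of inc and sta. Nmdar1, another NMDA receptor subunit gene, named after its values were seen, had no end peak but held the highest summit among these 14 genes, a pileup of 162 (138 to 189) and 12.8-fold enrichment, in an interval also at an end of Itpr. CG11155 had neither, and GluRIA had no end peak but 1 weak summit inside, with a pileup of 30. Of 5 genes of olfactory and humidity-sensing organs (amos, Amt, ato, Obp59a and Orco) 0 had a peak at an end or a summit inside. All 5 thus had neither (100%, 47.8 to 100%), against 33.6% of all genes. The list is too short to describe such genes as a class. Amt, an ammonium transporter gene, was 389 bp from a summit, and amos, a proneural gene of olfactory neurons, 5249 bp.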

How the data were processed

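Open chromatin was measured by ATAC-seq in 2 libraries of S2 cells. The submitters' processing notes name Bowtie2, MACS2, deepTools and dm6, without versions or settings. The sources used here do not give pooling of libraries, duplicate removal or correction for the Tn5 offset, and each can move a summit or its height. In the deposited list, the fold enrichment column is a ratio of pileup to local background made by the authors, and the −log10 p and −log10 q columns are the authors' too (lowest −log10 q 1.30). In 65 lines without a summit the interval's middle was used. Positions count from 1. Columns of samples left out numbered 0.

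Pileup and background were solved from fold and −log10 p (Poisson upper tail, pseudocount of 1, largest residual 0.000521, tolerance 0.001), a step tested on simulated data. Genes came from a RefSeq table of Release 6 (17807 genes on 7 chromosomes). A peak counted at an end when it overlapped the 250 bp window by 1 bp. Shares have exact (Clopper-Pearson) intervals. No hypothesis test was made. The planned promoter sequences, motifs and start-only alternative need strand or sequence and were not run. Members and lists were chosen with earlier results of these data known. The hemocyte markers, the neighbouring-gene comparison, the runs of Ir genes and the summit-free stretches over 100 kb were chosen after values were seen. Named genes follow a rule: members with a site, co-receptors, the 3 nearest and 3 farthest, and in other lists the 2 with the highest fold at an end and the first 2 without a peak. Further members stand as examples of their class, chosen after their values were seen. Python 3.11.15, numpy 2.4.6, pandas 2.3.3, scipy 1.17.1 and matplotlib 3.10.9 were used.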

Additional observations from a re-analysis of the deposited data

How the results depend on the processing

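The count of members with neither an end peak nor an inside summit, 47, ran from 43 to 52 over the 5 alternatives tried on it. The 7 members with an end peak became 3 with a window of 100 bp, 15 with 1000 bp, 3 with the summit required in the window and 0 at ends isolated by 1 kb. The 8 members with an inside summit became 2 with a −log10 q of at least 10 and 2 with the fold at or above the median, and the median distance rose from 2910.5 bp to 4642 bp under each. Summits inside members fell from 35 to 7 without Ir40a and Ir41a, an alternative added after the data were seen. The share of divergent members with an end peak, 9.30%, was 2.33% with 100 bp and 23.3% with 1000 bp. With protein-coding neighbours only, also added later, the summit was nearer to another gene in 6 of 7 members, as with all genes. The start-only alternative was not run. Leaving out a library was not possible with 1 list that names no library. Depth per library is unknown, and sites below a pileup of 20 were not detectable.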

Other observations

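The 6 Ir pseudogenes, which the gene table lists apart from the protein-coding members, had no peak at an end and no summit inside. Both were also lacking in 47 of the 60 protein-coding members (78.3%). The share among all pseudogenes was not computed, so the count shows nothing particular to Ir pseudogenes. The pseudogenes lay between 617 bp (Ir56e) and 39487 bp (Ir47b) from the nearest summit.

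Of the members, 9 lay wholly inside another protein-coding gene, and none of these had a site at an end or inside. Sites were also lacking in 47 of all 60 members (78.3%). The share among all nested protein-coding genes was not computed, so the count shows nothing particular to nested members. Ir48c lies in ths, a fibroblast growth factor gene, which held 18 summits inside its bounds, the closest 507 bp from Ir48c. Ir56a lies in 5-HT1A, a serotonin receptor gene with 3 summits inside, and was 23248 bp from the nearest. Ir93a has the kainate-type receptor gene KaiR1D as its right-hand neighbour, 242 bp away, and each held 1 weak summit inside, with pileups of 29 and 23.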
